A study of Mus musculus with 12 samples.

Results

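The oil-by-tissue difference asks whether CWO (camphor white oil, which is obtained by distilling camphor wood) changed gene expression in skin papillomas by the same amount as in normal epidermis. For each gene it is the oil effect in papilloma (CWO minus vehicle) minus the oil effect in epidermis, on the log2(FPKM + 1) scale, where FPKM is the fragment count scaled to transcript length and library size. A negative difference means that the oil effect was lower in papilloma. All 12 libraries of the series enter it, 3 in each of 4 groups, and every group is polyA RNA from FVB/NJ mice. Epidermis came from shaved skin 24 h after 400 µL of topical 20% CWO or of acetone vehicle, given 1 week after shaving. It was lifted from the skin with 3.8% ammonium thiocyanate. Papillomas were raised in mice shaved at 6 to 7 weeks of age, with 400 nmol of the carcinogen DMBA, then 10 nmol of the tumour promoter TPA applied 2 times a week. All papilloma mice, controls included, had DMBA and TPA. They were given 20% CWO or acetone vehicle for 6 weeks, at a frequency the labels do not give, and 4 pre-malignant tumours of similar size were pooled for each mouse, with 3 mice in each treatment. For epidermis the labels name 5 mice per treatment, of which the 3 RNA samples of best integrity in each treatment were sequenced. Prior exposure to DMBA and TPA, the length of oil treatment and the way the tissue was taken all change together with the tissue, so their shares in the difference cannot be told apart.

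Epidermis renews itself from a basal layer of dividing keratinocytes, which stop dividing, build a cornified envelope of cross-linked proteins and are shed. Irritated or wounded epidermis is known to divide faster and to switch on small proline-rich proteins, stefins, stress keratins and epithelial cytokines. Papillomas made with DMBA and TPA are outgrowths of keratinocytes with an activated Ras pathway, in which such genes are commonly expressed without further stimulus. In bulk samples a change in the number of cells of a type and a change in RNA per cell cannot be told apart.

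The files list 23235 gene symbols. Fragments recovered from FPKM and its interval numbered 11.1 to 24.6 M per library. Of recovered values under 500 fragments 68.2% to 69.5% were whole within 0.02, so these depths are estimates. In all, 13184 genes passed the filter on low values. Defining keratinocyte markers were high in every library: the mean log2(FPKM + 1) of 10 such genes lay between 9.89 and 10.7. Muscle genes were uneven. The mean of 24 skeletal muscle genes was 7.48, 7.90 and 5.77 in epidermis with vehicle and 5.93, 5.54 and 5.91 with CWO. In papilloma it was 1.34, 3.34 and 1.44 with vehicle and 0.340, 1.55 and 0.420 with CWO, so vehicle libraries 1 and 2 of epidermis and vehicle library 2 of papilloma stood above their groups.

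The oil effect differed between the tissues for 101 of 13184 genes (0.766%) by limma, at a Benjamini-Hochberg adjusted p under 0.05. The difference was below 0 for 97 of them (0.736%) and above 0 for 4 (0.0303%). The difference was at least 1 in size on the log2 scale for 87 genes and at least 2 for 27, and the smallest that passed was 0.614. At an unadjusted p under 0.05 there were 1305 genes (9.90%), 969 below 0 and 336 above. In the same fit CWO changed 656 genes in epidermis (4.98%), 561 upward and 95 downward. In papilloma it changed 1 (0.00758%), the ammonium transporter gene Rhcg.

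**Figure D1:**
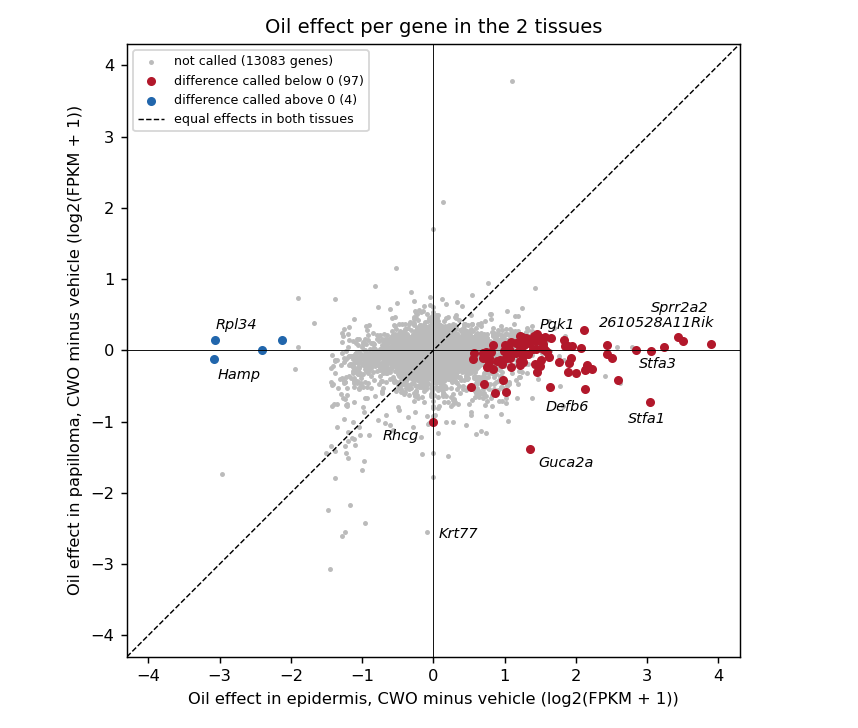
Each point is 1 gene, with the oil effect in epidermis on the x axis and in papilloma on the y axis, both as CWO minus vehicle in log2(FPKM + 1). The 97 genes with a difference called below 0 (red) lie to the right of the dashed line of equal effects and, except Rhcg, Guca2a and a few others, close to 0 in papilloma, and the 4 called above 0 (blue) lie to its left.

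Rhcg aside, the 96 genes below 0 all had a called rise in epidermis, with log2 effects of 0.53 to 3.89 and a median of 1.35. In papilloma the same genes had a median effect of -0.05, with a range of -1.38 to 0.29 and a median standard error of 0.164. For 78 of them the papilloma effect lay within 0.25 of 0, for 17 it lay under -0.25 and for 1 over 0.25. The papilloma groups did not overlap for 17 of the 97 genes, with CWO lower in 10 and higher in 7, against 7.17% of all genes tested. These genes were called on the same libraries, so both counts are a description. In papilloma 7 of the 96 had an unadjusted p under 0.05, which none of them kept after adjustment: Guca2a, Mmp12, Igtp, Defb6, Fam3b, A730085K08Rik and Clec7a. All 7 effects were below 0, but a gene with a lower papilloma effect was more readily called for a difference below 0, so the sign was favoured by the choice of genes. Among all 561 genes that rose in epidermis, 12 had an unadjusted p under 0.05 with a papilloma effect above 0 and 13 with one below 0. Among all 13184 genes tested these numbers were 66 above 0 and 215 below 0, so the background leaned to the lower side.

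The papilloma effects of the genes that moved in epidermis were small but not evenly placed around 0. Of the 561 genes that rose in epidermis, 59.7% had a papilloma effect above 0, with a median of 0.04 and quartiles of -0.06 and 0.13. Of the 95 that fell, 31.6% had a papilloma effect above 0, with a median of -0.08. Among all genes tested the share was 45.9% and the median -0.01. Across the 13184 genes the effects in both tissues, which share no library, had a Pearson r of 0.137 and a Spearman rho of 0.103. Genes are not independent replicates, so this is a description. The genes include those of skeletal muscle, with list medians of -1.27 in epidermis and -1.31 in papilloma. Their part in the correlation was not tested.

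The number of genes called rested on which libraries were kept. Without epidermis vehicle library 3 it was 328, with 139 above 0 and 189 below, and without epidermis CWO library 3 it was 231. It was 62, 64, 34 and 56 without epidermis vehicle library 1 or 2 or CWO library 1 or 2. Without papilloma vehicle library 1 or 2 it was 55 and 57, and without papilloma CWO library 2 or 3 it was 48 and 54. Each of the 101 genes kept its sign in each of 30 alternative settings that tested it. The call itself held in all settings for 11 genes, among them 2610528A11Rik, 4930583H14Rik, Bcl2a1b, Defb6, Ero1l, Guca2a, Pgk1, Slpi, Sprr2a2 and Stfa3.

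The vehicle level in papilloma divided the 97 genes below 0 into 3 classes. In 58 of them mean FPKM in papilloma with vehicle was already above epidermis with CWO, and in 46 of these every papilloma vehicle library exceeded every epidermis CWO library. In 20 genes it lay between epidermis with vehicle and epidermis with CWO, and in 19 it lay below epidermis with vehicle. By the same rules the classes hold 44.3%, 4.92% and 50.8% of all genes tested. A gene that fell in epidermis cannot enter the middle class by these rules. It counts in the first class when papilloma lies between its epidermis groups. These shares are therefore not a like background for the 97 genes, which rose in epidermis except Rhcg. In the first class the median gene went from 5.99 to 19.4 FPKM in epidermis and stood at 48.5 and 51.0 FPKM in papilloma with vehicle and CWO. In the last it went from 7.85 to 19.9 FPKM in epidermis and stood at 2.54 and 2.02 FPKM in papilloma. The called small proline-rich, stefin and mitosis genes fall in the first class, 7 of 9 called hypoxia genes in the middle class, and the chemokines Ccl17 and Ccl22, the granzyme Gzmc, Defb6 and Guca2a fall in the last. Class membership uses the same libraries as the difference and is given as a description.

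**Figure D2:**
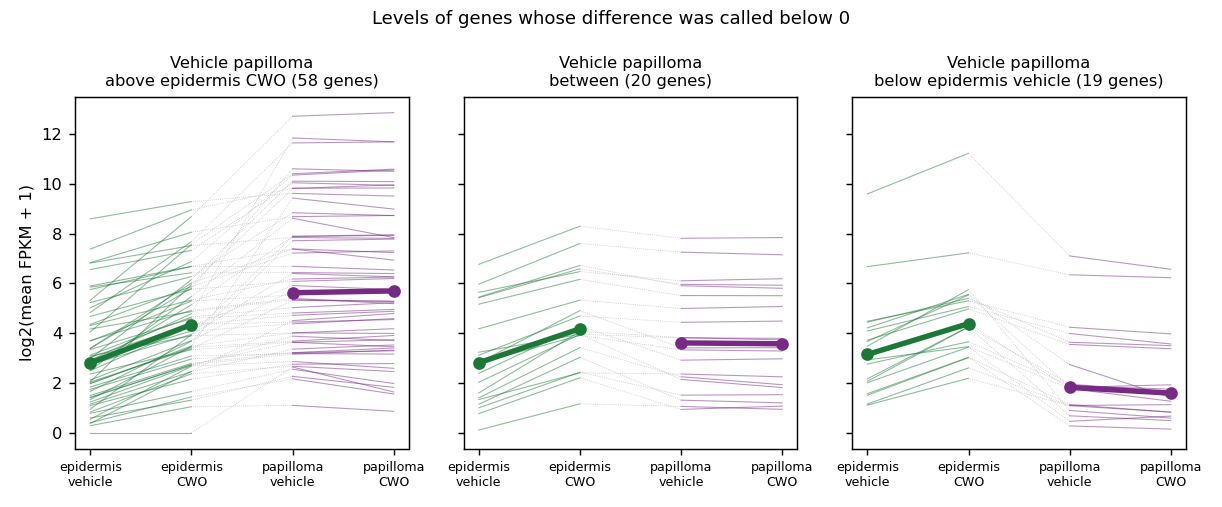
Thin lines are the 97 genes with a difference called below 0, split by where the papilloma vehicle mean lies, and thick lines are the medians of the log2 mean levels. The y axis is log2(mean FPKM + 1), with epidermis in green and papilloma in purple. Genes rise from left to right in epidermis, Rhcg excepted, and the papilloma medians are close to flat in the first 2 panels.

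Small proline-rich proteins are cross-linked into the cornified envelope and are made in quantity by stressed epidermis. Of 14 such genes tested, 4 passed below 0 (28.6% against the 0.736% over all genes) and 10 did not pass. Their median difference was -1.76, beside -0.04 for all genes, from median effects of 1.68 in epidermis and -0.17 in papilloma. Sprr2a2 stood at 13.8, 18.9 and 13.9 FPKM in epidermis with vehicle and at 205, 260 and 103 FPKM with CWO. In papilloma it stood at 1169, 1608 and 1301 FPKM under vehicle and at 1800, 1522 and 1317 FPKM with CWO. The epidermis groups are far apart and the papilloma groups overlap, at levels above every epidermis library. Its difference was -3.25 (SE 0.390, limma adjusted p = 0.00319), from 3.44 in epidermis and 0.19 in papilloma.

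Sprr2h went from 5.39, 5.75 and 9.45 FPKM to 57.1, 117 and 36.4 FPKM in epidermis, against 1016, 972 and 1330 FPKM and 1151, 988 and 1135 FPKM in papilloma (difference -3.06, SE 0.463, limma adjusted p = 0.0121). Sprr2d and Sprr2f had differences of -2.49 (adjusted p = 0.0413) and -2.67 (adjusted p = 0.0417), and Sprr2f stood at only 1.52 ± 0.576 FPKM in epidermis with vehicle (SD, n = 3) but 690 ± 267 FPKM in papilloma with vehicle. Sprr2d and Sprr2f were called in 14 and 13 of 30 alternatives and missed the threshold with median-ratio scaling (adjusted p = 0.0708 and 0.0618) and quantile normalization (0.0647 and 0.0502), where 2 of the 14 genes of the list passed. The number passing in the list was 6 without epidermis vehicle library 3, 8 without CWO library 3 and 2 or 3 without any other library. Sprr2a2, Sprr2d, Sprr2f and Sprr2h lie together on chromosome 3 (mm9, 92019757 to 92191241). Sprr2a2 is listed at more than 1 place and its FPKM were summed. Members of this family are close copies, so the split of reads between them is uncertain.

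Promoters of this family are shown because 4 of its members were called together. They come from RefSeq on GRCm38.p6, 5′ to 3′, and the window runs from 250 to 151 bases before the annotated start. Capitals mark the AP-1 core TGACTCA, searched on both strands.
Sprr2d (chr3:92338890-92338989, plus strand): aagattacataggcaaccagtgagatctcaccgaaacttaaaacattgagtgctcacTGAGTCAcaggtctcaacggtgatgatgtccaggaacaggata
Sprr2f (chr3:92364937-92365036, plus strand): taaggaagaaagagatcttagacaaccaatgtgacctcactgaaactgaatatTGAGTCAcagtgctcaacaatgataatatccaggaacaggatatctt
Sprr2h (chr3:92385435-92385534, plus strand): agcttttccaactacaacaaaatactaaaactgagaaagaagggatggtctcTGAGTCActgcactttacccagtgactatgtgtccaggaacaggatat
Sprr2a2 (chr3:92250397-92250496, plus strand): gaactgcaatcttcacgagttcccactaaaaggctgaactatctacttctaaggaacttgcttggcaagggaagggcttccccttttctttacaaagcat
Sprr2d, Sprr2f and Sprr2h each hold the motif once, 193, 197 and 198 bases before the start, and Sprr2a2 does not hold it in its 250 bases. Of 12 matched members of the list, 8 hold it (66.7%), against 4.43% of 27025 promoters of the same length. Sprr2b, Sprr2e, Sprr2i and Sprr2k hold it at nearly the same place, 195, 193, 193 and 196 bases before the start. These genes are close copies, so their matches are not independent. None of 7 matched stefin list promoters holds the motif. A match is a description of letters and not a measured site.

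Stefins inhibit cysteine proteases, and the stefin A genes form a cluster on chromosome 16. Of 10 genes of the list tested, 5 passed below 0 (50%, against 0.736% over all genes). The number passing was 6 without epidermis vehicle or CWO library 3 and 3 without any other library. The median difference was -2.0, from median effects of 2.12 in epidermis and 0.05 in papilloma. Stfa3 (mm9 chromosome 16, 36450623 to 36455478) stood at 25.1, 22.0 and 35.7 FPKM in epidermis with vehicle and at 255, 204 and 154 FPKM with CWO. In papilloma it stood at 3083, 3230 and 3315 FPKM under vehicle and at 3762, 3810 and 2343 FPKM with CWO. The papilloma CWO libraries thus lie on both sides of the vehicle libraries. The difference was -2.83 (SE 0.320, limma adjusted p = 0.0019).

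Stfa1 had a difference of -3.76 (SE 0.507, limma adjusted p = 0.00689). It stood at 2.71, 3.14 and 8.27 FPKM in epidermis with vehicle and 55.8, 46.1 and 28.6 FPKM with CWO. In papilloma it stood at 576, 287 and 316 FPKM with vehicle and 256, 249 and 181 FPKM with CWO, where all CWO libraries lie below the vehicle libraries (papilloma effect -0.72, not passing). BC100530, also in the cluster, had a difference of -3.37, with 39.1 ± 25.3 and 412 ± 127 FPKM in epidermis, against 6751 ± 582 and 7465 ± 1463 FPKM in papilloma (SD, n = 3). Gm5416 of the same cluster and Cstb, a stefin encoded elsewhere, passed at -3.20 and -0.80. The stefin A genes resemble each other, so the split of reads among them is uncertain as well.

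Alarmins and secreted defence proteins of keratinocytes gave further called genes. In the list of stress keratins and alarmins 3 of 15 passed below 0 (20%, against 0.736% over all genes), and the median difference was -0.47. The gene with the smallest p of all tested was 2610528A11Rik, which encodes the epithelial ligand of the receptor GPR15 and is in the chemokine list. It stood at 2.52, 3.32 and 3.60 FPKM in epidermis with vehicle and at 71.2, 62.9 and 48.9 FPKM with CWO, and at 940, 857 and 906 against 1258, 1076 and 656 FPKM in papilloma. Its difference was -3.80 (SE 0.297, limma adjusted p = 0.000296). Il1f6, an interleukin 36 cytokine, went from 5.46 ± 0.761 to 34.4 ± 8.32 FPKM in epidermis and from 236 ± 85.1 to 243 ± 61.8 FPKM in papilloma (SD, n = 3), a difference of -2.36 (SE 0.349, adjusted p = 0.0114).

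Slpi, a secreted inhibitor of leukocyte proteases, was far higher in papilloma, with 4.56, 9.4 and 5.71 FPKM in vehicle epidermis, 22.8, 32.6 and 24.3 FPKM after CWO, and 2519 to 4142 FPKM over the 6 papilloma libraries. Its difference was -2.07 (SE 0.320, limma adjusted p = 0.0121). Klk6, a serine protease of the kallikrein family, had a difference of -1.68 (adjusted p = 0.0366, but 0.0632 with median-ratio scaling and 0.0569 with quantile normalization), with 31.5 and 117 FPKM in epidermis, against 1309 and 1507 FPKM in papilloma. Chi3l1, a chitin-binding glycoprotein secreted during inflammation, had -3.01 (SE 0.407, adjusted p = 0.00689), with 9.48 and 63.9 FPKM in epidermis, against 166 and 122 FPKM in papilloma. Defb6, a beta-defensin, had the opposite order of levels: 815, 791 and 716 FPKM in vehicle epidermis, 2518, 2482 and 2202 FPKM after CWO, 116, 172 and 122 FPKM in vehicle papilloma and 90.7, 100 and 91.1 FPKM with CWO. Both groups of papilloma libraries lie below every epidermis library, and its difference was -2.15 (SE 0.193, adjusted p = 0.000611).

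Genes of mitosis rose in epidermis almost as a whole, and their papilloma effects were small beside it. Of 30 tested, 29 passed for a rise in epidermis, against 561 of all 13184 genes. For a difference below 0, 9 passed (30%, against 0.736% over all genes) and 21 did not pass. The 9 rest on which libraries were kept: 26 passed without epidermis vehicle library 3 and 24 without epidermis CWO library 3, but 0 to 3 without any other library. All 30 had a difference below 0, as did 57.7% of all genes tested. The median difference was -1.09, from median effects of 1.28 in epidermis and 0.17 in papilloma. Ccna2, the cyclin of S phase and early mitosis, stood at 5.57, 5.63 and 8.53 FPKM in epidermis with vehicle and at 22.1, 18.7 and 17.0 FPKM with CWO. In papilloma it stood at 25.6, 27.1 and 23.3 FPKM under vehicle and at 27.5, 28.7 and 29.2 FPKM with CWO. Its difference was -1.27 (SE 0.202, limma adjusted p = 0.0149).

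Aurkb, the kinase of chromosome segregation, and Kif2c, a kinesin that takes microtubules apart at the centromere, had differences of -1.33 (adjusted p = 0.0329) and -1.20 (adjusted p = 0.0305). The other called members were Birc5 (-1.47), Cenpa (-1.38), Cdca3 (-1.24), Cdca8 (-1.10), Nek2 (-1.05) and Cdc25c (-1.04). Cdk1, the mitotic kinase, had -1.44 and missed the threshold. Mki67, the usual marker of dividing cells, stood at 3.88 ± 1.33 and 10.1 ± 1.70 FPKM in epidermis, against 24.9 ± 0.376 and 28.9 ± 2.36 FPKM in papilloma (SD, n = 3). Its difference of -1.0 did not pass (limma adjusted p = 0.0915, 95% interval -1.53 to -0.48). Genes of DNA replication moved less: 0 of 30 passed by limma, 21 had an unadjusted p under 0.05, all 30 lay below 0, and the median difference was -0.48. Over all genes 9.90% had an unadjusted p under 0.05 and 57.7% lay below 0. Mcm3, a subunit of the replicative helicase, had -0.65 (adjusted p = 0.0889).

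The promoter of Cdca8, a subunit of the complex that holds Aurkb at the centromere, is shown as an example of the mitosis list, from 100 to 1 bases before its start, with CCAAT in capitals wherever either strand holds it.
Cdca8 (chr4:124936918-124937017, minus strand): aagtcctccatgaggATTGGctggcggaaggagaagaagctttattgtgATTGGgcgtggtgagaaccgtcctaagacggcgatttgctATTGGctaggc
Of 25 matched promoters of the list 20 hold CCAAT (80%), against 34.5% of all promoters, and 8 hold the cell cycle element TTTGAA (32%), against 16.3%. Among the 6 called members with a promoter 4 hold CCAAT and 1 holds TTTGAA.

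Genes induced by low oxygen and the glycolytic enzymes formed the other large group. Of 30 tested, 23 rose in epidermis, against 561 of all 13184 genes. For a difference below 0, 9 passed (30%, against 0.736% over all genes). The other 21 did not pass, and all 30 lay below 0, as did 57.7% of all genes tested. With median-ratio scaling 4 passed and with quantile normalization 5. Without epidermis CWO library 3 it was 15, without epidermis vehicle library 3 it was 10, without papilloma vehicle library 2 it was 8, and without any other library 3 to 5. The median difference was -0.94, from 0.94 in epidermis and 0.01 in papilloma. Pgk1, the glycolytic phosphoglycerate kinase, stood at 108, 125 and 91.2 FPKM in epidermis with vehicle and at 357, 305 and 282 FPKM with CWO. In papilloma it stood at 273, 191 and 209 FPKM under vehicle and at 240, 224 and 223 FPKM with CWO. Here the epidermis CWO libraries reached beyond every papilloma library. The difference was -1.49 (SE 0.208, limma adjusted p = 0.00808).

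Ero1l, the oxidase that forms disulfide bonds in the endoplasmic reticulum, stood at 11.1, 11.4 and 13.6 FPKM and at 31.2, 30.5 and 26 FPKM in epidermis, against 45.8, 36 and 41.9 FPKM and 35.3, 34.7 and 36.4 FPKM in papilloma. Its difference was -1.42 (SE 0.157, limma adjusted p = 0.00168). Higd1a, a mitochondrial protein of low oxygen, had -1.19 (adjusted p = 0.0114). The other called members were Egln3 (-1.71), an oxygen-sensing prolyl hydroxylase, Car9 (-1.38), a carbonic anhydrase, Bnip3 (-1.33), Pgam1 (-1.16), P4ha2 (-1.14) and Pfkp (-0.99).

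Promoters of Pgk1, from 200 to 101 bases before its start, and of Ero1l (Ero1a in RefSeq) and Car9, from 100 to 1, are shown with the hypoxia response core ACGTG in capitals wherever either strand holds it.
Pgk1 (chrX:106186900-106186999, plus strand): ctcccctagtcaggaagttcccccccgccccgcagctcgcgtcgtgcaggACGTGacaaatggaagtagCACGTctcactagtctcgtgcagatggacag
Ero1l (chr14:45318573-45318672, minus strand): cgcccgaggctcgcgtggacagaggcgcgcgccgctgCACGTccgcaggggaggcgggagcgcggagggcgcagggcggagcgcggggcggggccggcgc
Car9 (chr4:43506926-43507025, plus strand): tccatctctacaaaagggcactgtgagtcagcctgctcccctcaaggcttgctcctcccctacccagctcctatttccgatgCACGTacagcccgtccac
Of 29 matched promoters of the list 14 hold ACGTG (48.3%), against 16.6% of all promoters, and 7 of the 9 called members hold it. ACGTG is also part of the E-box CACGTG.

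Lipid genes moved by smaller steps. In cholesterol synthesis 13 of 22 genes rose in epidermis, against 561 of all 13184 genes. For a difference below 0, 3 passed (13.6%, against 0.736% over all genes) and 19 did not, with a median difference of -0.48. None of the 22 passed with median-ratio scaling and 1 with quantile normalization. The number was 4 without epidermis vehicle library 3, epidermis CWO library 3 or papilloma CWO library 1, and 0 or 1 without any other library. Acat2, an acetyl-CoA acetyltransferase, went from 48.9 ± 2.43 to 88.0 ± 8.03 FPKM in epidermis and from 68.0 ± 3.01 to 72.0 ± 8.51 FPKM in papilloma (SD, n = 3), a difference of -0.75 (SE 0.141, limma adjusted p = 0.0329). Pmvk and Idi1, of the mevalonate and isoprenoid steps, had -0.68 and -0.94, and Cyp51, the sterol demethylase, had -0.87 and did not pass (adjusted p = 0.0719). Of 23 genes of barrier lipids 1 passed (4.35%, against 0.736% over all genes), the ceramide desaturase Degs1 (-0.75). Degs1 missed the threshold with median-ratio scaling (adjusted p = 0.0704) and quantile normalization (0.0587). None of 22 sebaceous and fatty acid genes passed by limma, and 7 had an unadjusted p under 0.05 (against 9.90% of all genes). Scd3, which desaturates fatty acids in sebocytes, had 1.68 (adjusted p = 0.05003).

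Among 24 chemokines and cytokines 9 rose in epidermis, against 561 of all 13184 genes. For a difference below 0, 4 passed (16.7%, against 0.736% over all genes). Of the 24, 10 had an unadjusted p under 0.05 (against 9.90% of all genes) and 20 did not pass, with a median difference of -0.67. The number passing was 5 without epidermis vehicle library 3, 6 without CWO library 3 and 2 to 4 without any other library. Ccl17, a chemokine of activated dendritic cells, stood at 3.81, 2.69 and 3.10 FPKM in vehicle epidermis and at 22.4, 17.9 and 13.7 FPKM with CWO. It did not exceed 0.661 FPKM in any papilloma library, and its difference was -2.36 (SE 0.249, limma adjusted p = 0.00113). At such low papilloma levels the scale shrinks any change there, so the difference largely restates the epidermis effect of 2.16. The call of Ccl17 held with a pseudocount of 0.1 (limma adjusted p = 0.0103). Ccl22, made by the same cells, had 11.7 and 45.4 FPKM in epidermis, against 2.54 and 2.80 FPKM in papilloma (difference -1.78, adjusted p = 0.0214). Ccl20, which attracts Langerhans cell precursors, had 3.49 and 18.1 FPKM against 2.87 and 2.11 FPKM (difference -2.4, adjusted p = 0.0214).

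Of 18 Langerhans and dendritic cell genes 9 rose in epidermis, against 561 of all 13184 genes. For a difference below 0, 2 passed (11.1%, against 0.736% over all genes), Ccl17 and Ccl22. At an unadjusted p under 0.05 there were 11, against 9.90% of all genes. All 18 lay below 0, as did 57.7% of all genes, and their median difference was -0.51, beside -0.04 for all genes. Without epidermis CWO library 3 the number passing was 6, without epidermis vehicle library 3 it was 3, and without any other library 1 or 2. The list mean was 3.45 to 3.62 in vehicle epidermis, 4.05 to 4.32 with CWO and 2.78 to 3.00 in the 6 papilloma libraries. Cd207, which defines Langerhans cells, had 51.0 and 55.9 FPKM in epidermis, against 4.63 and 3.84 FPKM in papilloma, with a difference of -0.33 that did not pass. Of 16 T cell and cytotoxic genes 1 passed (6.25%, against 0.736% over all genes), the granzyme Gzmc. Gzmc had 13.2, 8.90 and 8.36 FPKM in vehicle epidermis, 75.2, 49.1 and 34.3 FPKM with CWO and 0.283 to 1.26 FPKM in papilloma (difference -2.49, SE 0.385, limma adjusted p = 0.0121). With a pseudocount of 0.1 the call of Gzmc was lost (limma adjusted p = 0.0591), and near 0 FPKM the scale shrinks any change in papilloma. The mean of the T cell list lay between 2.82 and 3.15 in epidermis and between 0.506 and 0.941 in papilloma. Cd3e, a CD3 chain found on T cells, had 26.9 and 20.9 FPKM in epidermis against 0.828 and 0.539 FPKM in papilloma (difference 0.13, not passing). Of 24 interferon response genes 1 passed (4.17%, against 0.736% over all genes), the GTPase Igtp (-1.04, adjusted p = 0.0276). Igtp had 6.6 and 10.0 FPKM in epidermis, against 2.42 and 1.40 FPKM in papilloma. Of 27 macrophage and neutrophil genes and of 13 metalloproteinases 1 each passed (3.70% and 7.69%, against 0.736% over all genes). It is the same gene, the macrophage elastase Mmp12 (-1.62, SE 0.218, adjusted p = 0.00689). Mmp12 rose from 0.322 to 1.71 FPKM in epidermis and had 3.49 and 1.94 FPKM in papilloma with vehicle and CWO, where the effect of -0.59 did not pass. The part of cell numbers in these differences was not tested.

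Detoxification and iron genes gave few calls. Aox4, an aldehyde oxidase that acts on retinal, had -2.04 (adjusted p = 0.0121), with 6.07 and 29.0 FPKM in epidermis, against 9.63 and 9.70 FPKM in papilloma. It was the 1 call among 28 NRF2 and glutathione genes (3.57%, against 0.736% over all genes). Tfrc, the transferrin receptor, had -1.06 (adjusted p = 0.0329). Postn, a matrix protein, had -1.45 (adjusted p = 0.0291), although the median of its list of 19 collagen and fibroblast genes was 0.57, on the other side of 0.

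For Guca2a and Rhcg the papilloma effect was larger in size than the epidermis effect. Guca2a, which encodes the peptide guanylin, stood at 15.5, 15.8 and 21.3 FPKM in vehicle epidermis and at 49.8, 50.4 and 38.5 FPKM with CWO. In papilloma it stood at 5.02, 6.17 and 5.86 FPKM under vehicle and at 2.61, 1.02 and 1.32 FPKM with CWO. The groups do not overlap in either tissue and the order is opposite. The difference of -2.73 (SE 0.284, limma adjusted p = 0.00113) is made of 1.35 in epidermis and -1.38 in papilloma, of which the second alone did not pass. Rhcg was listed at 0 in all 6 epidermis libraries and stood at 4.84, 4.96 and 5.88 FPKM in vehicle papilloma and at 2.07, 2.4 and 1.87 FPKM with CWO, so its difference of -1.0 (SE 0.153, adjusted p = 0.0121) is its papilloma effect. The shared estimate of spread uses those listed zeros. With a pseudocount of 0.1 the difference of Rhcg missed the threshold (limma adjusted p = 0.132) and 0 genes were called in papilloma. Rhcg was called for the difference in 26 of 30 alternatives. Krt77, a keratin of the interfollicular epidermis, did not pass (difference -2.47, adjusted p = 0.0596), with 72.2, 117 and 48.2 FPKM in vehicle papilloma, 5.82, 21.5 and 12.9 FPKM with CWO and 4640 to 6582 FPKM in epidermis.

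**Figure D3:**
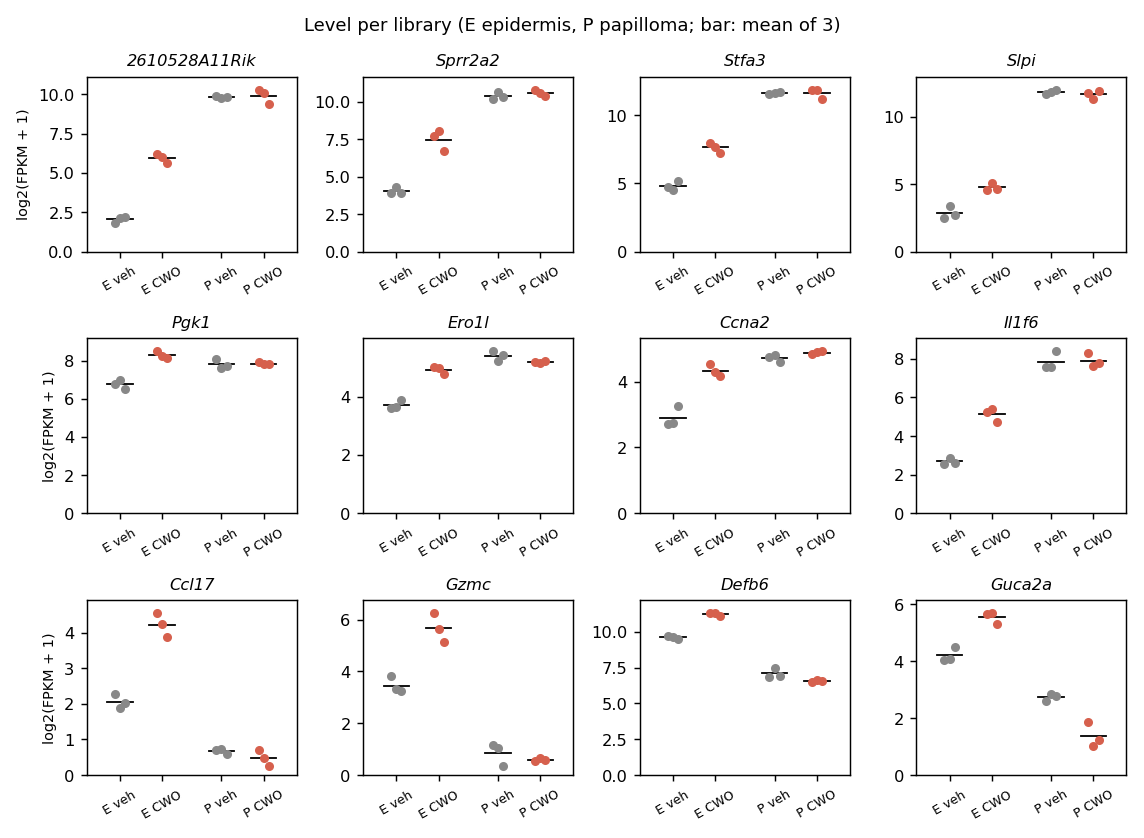
Points are log2(FPKM + 1) in each of the 12 libraries for 12 called genes, with vehicle in grey, CWO in red and the mean of 3 libraries as a bar. E is epidermis and P is papilloma. CWO lies above vehicle in epidermis in every panel, the first 8 genes have papilloma levels at or above vehicle epidermis, and the last 4 have lower papilloma levels, with Guca2a lower still under CWO.

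Only 4 genes passed above 0, and all 4 had lower listed FPKM with CWO than with vehicle in epidermis. For 1 of them, Rpl34, this depends on how reads were assigned, as given below. Hamp, a hepcidin that limits iron export, stood at 39.8, 25.7 and 28.5 FPKM in vehicle epidermis and at 2.14, 1.5 and 5.80 FPKM with CWO, and was listed at 0 in 5 of 6 papilloma libraries (difference 2.96, SE 0.417, limma adjusted p = 0.00817). Cartpt, a neuropeptide precursor, stood at 14.4, 8.42 and 15.6 FPKM and at 1.36, 0.706 and 3.10 FPKM in epidermis and was listed at 0 in every papilloma library (difference 2.4, adjusted p = 0.015). Gng13, a G protein gamma subunit, had 26 and 5.48 FPKM in epidermis and at most 0.873 FPKM in papilloma (difference 2.27, adjusted p = 0.0298). With a pseudocount of 0.1 the calls of Hamp and Gng13 were lost (adjusted p = 0.139 and 0.473), and Gng13 was called in 18 of 30 alternatives. Where papilloma is at or near 0 the difference restates the epidermis effect. Hamp2, the neighbouring hepcidin, also fell in epidermis, from 1393 to 208 FPKM (effect -2.96, limma adjusted p = 0.00853). Its papilloma effect was -1.73, and its difference of 1.23 did not pass (adjusted p = 0.69). How reads were divided between Hamp and Hamp2 was not tested.

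Rpl34, a ribosomal protein gene, had the largest positive value, 3.21 (SE 0.411, limma adjusted p = 0.00522), but its pseudogene Rpl34-ps1 moved the other way in epidermis. Rpl34-ps1 stood at 0.00965, 0.0678 and 26.75 FPKM in vehicle epidermis and at 179, 185 and 186 FPKM with CWO. Rpl34 alone stood at 172, 214 and 143 FPKM in vehicle epidermis and at 30.4, 10.6 and 24.2 FPKM with CWO. Summed with Rpl34-ps1 it stood at 172, 214 and 170 FPKM and at 209, 196 and 210 FPKM in epidermis, against 154, 130 and 146 FPKM and 128, 153 and 143 FPKM in papilloma. The sum is not lower with CWO in epidermis, so the call depends on how reads were assigned between the pair.

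Many lists held no called gene by limma. None of 28 cornified envelope, 26 interfollicular keratin and adhesion, 24 unfolded protein response, 14 heat shock, 23 immediate early, 26 EGFR and RAS feedback, 14 calcineurin, 8 TRP channel or 23 p53 target genes passed, with 6, 2, 1, 0, 3, 4, 2, 0 and 3 at an unadjusted p under 0.05. Over all genes 0.766% passed and 9.90% had an unadjusted p under 0.05. At the first share lists this short can hold no called gene. Trpv3, a warmth-sensitive channel opened by camphor, had a difference of -0.13 (95% interval -0.92 to 0.66), and Rcan1, a calcineurin regulator, had 0.26 (95% interval -0.01 to 0.54). Nqo1 of the NRF2 response had -0.23 and Cyp1a1, induced through the aryl hydrocarbon receptor, -0.98, and neither passed (adjusted p = 0.847 and 0.489). Skeletal muscle genes had list medians of -1.27 in epidermis and -1.31 in papilloma and a median difference of 0.05, and 0 of 24 passed by limma in either tissue or for the difference, with 0 at an unadjusted p under 0.05 for the difference. With that list's mean as a covariate, 115 genes were called for the difference. The hair follicle list had a median difference of -1.08 with 0 of 25 passing and 1 at an unadjusted p under 0.05, and its mean ran from 1.24 to 4.75 over the epidermis libraries.

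**Figure D4:**
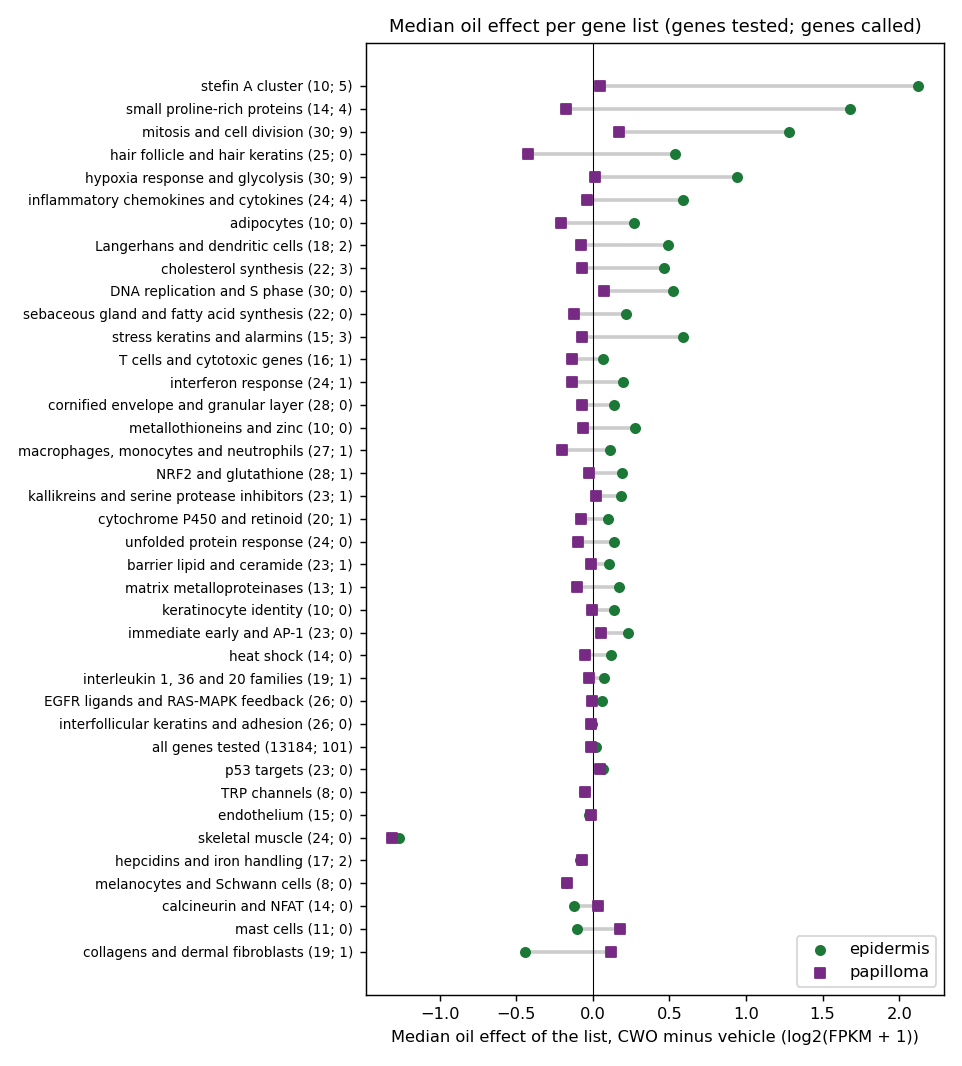
For each list the green circle is the median oil effect in epidermis and the purple square that in papilloma, in log2(FPKM + 1), ordered by the median difference. Stefins, small proline-rich proteins, mitosis and hypoxia genes have epidermis medians of 0.94 to 2.12 beside papilloma medians of -0.17 to 0.17, and skeletal muscle is low in both.

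The keratins of the panel did not pass. Krt16, a stress keratin, stood at 76.8, 93.7 and 150 FPKM in vehicle epidermis and at 438, 606 and 194 FPKM with CWO, and at 8573 to 9654 FPKM in papilloma (difference -1.79, 95% interval -2.83 to -0.75, limma adjusted p = 0.135). Krt14, of the basal layer, had -0.53 and Krt10, of the layers above, -0.09, and the sign of Krt10 turned in some settings. Krt6a and Krt6b, keratins of wounded skin, could be read in 2 of 6 papilloma libraries and were not tested. Krt6a stood at 91.2, 104 and 115 FPKM in vehicle epidermis, at 219, 262 and 120 FPKM with CWO, and at 9169 FPKM with vehicle and 9225 FPKM with CWO in the papilloma libraries that could be read. Ifng, the only panel gene below the filter with all values, had only 2 to 6 recovered fragments in each epidermis library and 0 or 1 in each papilloma library, too few to compare.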

How the data were processed

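Transcripts were measured by polyA RNA sequencing in 12 libraries. Per the submitters' processing notes, bcl2fastq 1.8.4, TopHat2 2.0.4 and Cufflinks 2.0.2 were used with the mm9 genome. The authors deposited gene-level FPKM, each with a confidence interval and a status flag, per the file headers. Any status but OK made a value missing, 248 symbols with more than 1 row were summed, and genes of short non-coding RNA were dropped. A gene was tested where 3 or more libraries reached an FPKM of 1 and each group had 2 or more values, and 35 genes tested had a missing value. Of the genes near Krt6a, 11 could not be read in 4 papilloma libraries.

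The deposited FPKM were not rescaled. limma 3.58.1 (R 4.3.3; trended prior variance) was fitted to log2(FPKM + 1) with 1 coefficient per group, and the difference was tested two-sided with Benjamini-Hochberg adjustment over all genes. The scale understates changes of genes at low level. Labels do not say that epidermis samples are separate animals, so p-values measure the spread between samples. The procedure was tested on simulated data. Alternatives covered pseudocounts, filters, scaling, limma settings, limma-voom on recovered fragments, a replicate block, a muscle covariate and each library left out.

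Named genes were the 8 largest named differences per direction among called genes whose libraries do not overlap, up to 3 called members per list by p (or the 1 with the smallest p), called genes with a larger effect in papilloma, and a panel. Other called list members were named after their values were seen. The members, lists and rule were chosen with earlier results of these data known. Positions of genes are mm9. Promoters are RefSeq's on GRCm38.p6, the first listed start per gene, matched by symbol or synonym, and the 250 bases before it were searched. Proteins were not used here, and the authors' comparison tables were not used here. A called gene is not reported here.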

Additional observations from a re-analysis of the deposited data

Results flagged for a closer look

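The oil effect differed between papilloma and epidermis for 101 genes by limma's test of the difference itself. Among the called genes chosen by the naming rule, differences of -2 or lower included those of 2610528A11Rik (-3.80), Stfa1 (-3.76), BC100530 (-3.37), Sprr2a2 (-3.25), Sprr2h (-3.06), Chi3l1 (-3.01), Stfa3 (-2.83), Guca2a (-2.73), Sprr2f (-2.67), Gzmc (-2.49), Sprr2d (-2.49), Ccl20 (-2.4), Ccl17 (-2.36), Il1f6 (-2.36), Defb6 (-2.15), Slpi (-2.07) and Aox4 (-2.04). Of the same genes, differences between -2 and 0 included those of Ccl22 (-1.78), Klk6 (-1.68), Mmp12 (-1.62), Pgk1 (-1.49), Postn (-1.45), Ero1l (-1.42), Aurkb (-1.33), Ccna2 (-1.27), Kif2c (-1.20), Higd1a (-1.19), Tfrc (-1.06), Igtp (-1.04), Rhcg (-1.0), Idi1 (-0.94), Acat2 (-0.75), Degs1 (-0.75) and Pmvk (-0.68). Of the same genes, differences above 0 included those of Rpl34 (3.21), Hamp (2.96), Cartpt (2.4) and Gng13 (2.27). The value for Rpl34 depends on reads shared with Rpl34-ps1. Tissue, length of treatment and prior DMBA and TPA cannot be told apart in any of them.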

How the results depend on the processing

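Each of the 101 genes kept the sign of its difference in every alternative that tested it, 45 were called in at least 25 of 30 alternatives and 16 in fewer than 15. Counts are given in the order genes called, above 0, below 0, called for CWO in epidermis and in papilloma, which were 101, 4, 97, 656 and 1. With a pseudocount of 0.1, 2 were above 0 and 0 were called in papilloma, and with a pseudocount of 3, 11 were above 0. Without a filter they were 63, 12, 51, 557 and 5. Above 0 there were 9 with median-ratio scaling, 13 with quantile normalization and 7 with a robust variance estimate. With library weights they were 479, 64, 415, 1811 and 2. With weights by tissue 375 were called in epidermis and 2 in papilloma, and 2 in papilloma also with short genes kept and with limma-voom (75 for the difference). With the muscle covariate 10 were above 0, 222 were called in epidermis and 0 in papilloma. Leaving out epidermis vehicle libraries 1 and 2 together gave 17, 0, 17, 48 and 0. Leaving out epidermis vehicle library 3 and papilloma vehicle library 2, chosen after seeing the data, gave 320, 171, 149, 963 and 0. Leaving out each library in turn gave 34 to 328, 2 to 139, 32 to 212, 282 to 1055 and 0 to 2. The cause was not tested.

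The labels do not say whether a replicate number pairs libraries. The correlations of same-numbered libraries were mixed (r 0.051, -0.442 and -0.370 in epidermis, 0.262, 0.145 and 0.021 in papilloma), and not all were over 0.1, so no pairing was assumed, though it cannot be settled here. With a replicate block the counts were 25, 4, 21, 361 and 0.

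The sign turned only in genes that did not pass. Hamp2 had -1.27 with a pseudocount of 0.1 and -0.98 with limma-voom, and Myh4 -0.68 with limma-voom. Krt10 had 0.036 with quantile normalization, 0.017, 0.11 and 0.50 without epidermis vehicle library 1, papilloma vehicle library 3 or papilloma CWO library 3, and 0.0017 without epidermis vehicle libraries 1 and 2; its range with each library left out was -0.48 to 0.50. Trpv3 had 0.070 with library weights, 0.006 and 0.20 without epidermis vehicle library 2 or CWO library 2, and 0.020 without epidermis vehicle libraries 1 and 2, and -0.31 at the lowest without 1 library. Igfbp6 had -0.26 without the same libraries 1 and 2. Acta1 had 0.11 without epidermis vehicle library 3 and papilloma vehicle library 2. With 3 libraries a group the median standard error of a difference was 0.190, which limits small differences.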

Other observations

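Among the 101 called genes 54 stood in none of the gene lists, and those described next were chosen after their values were seen. Several serve cell division. Nuf2, part of the kinetochore, had 1.66 and 5.65 FPKM in epidermis with vehicle and CWO, against 7.93 and 8.99 FPKM in papilloma (difference -1.17). Cks1b, which binds cyclin-dependent kinases, had -0.97, Racgap1 and Cep55, both of cytokinesis, had -1.01 and -1.24, and Cdca5, of sister chromatid cohesion, had -1.27. The epithelial transcription factors Ehf (-1.36) and Elf3 (-1.62) belong to the ETS family. Ehf had 5.67 ± 0.768 and 14.5 ± 1.70 FPKM in epidermis, against 83.4 ± 11.5 and 76.0 ± 14.4 FPKM in papilloma (SD, n = 3). Elf3 had 1.35 and 5.49 FPKM in epidermis, against 13.7 and 12.1 FPKM in papilloma.

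Bcl2a1b, Bcl2a1a and Bcl2a1d, anti-apoptotic genes that are near-identical copies on mouse chromosome 9, had differences of -2.32, -1.33 and -1.31, and reads between them may be split uncertainly. Bcl2a1b had 1.65 and 9.71 FPKM in epidermis, against 3.76 and 2.81 FPKM in papilloma. The pattern-recognition lectins Clec4n and Clec7a had -1.18 and -1.17, and Tnfrsf9, a costimulatory receptor of lymphocytes, had -1.43. Gsdmc, a gasdermin, had the widest spread of levels among these genes, with 2.17 ± 0.739 and 11.8 ± 5.10 FPKM in epidermis, against 210 ± 24.2 and 219 ± 19.1 FPKM in papilloma (SD, n = 3, difference -1.88, limma adjusted p = 0.049). Gsdmc and Clec7a were called in only 8 and 9 of 30 alternatives. Atp12a, a proton pump subunit, had -2.19, with 3.08 and 14.5 FPKM in epidermis, against 3.42 and 2.52 FPKM in papilloma. Slc16a1, a lactate transporter, had -0.76, and Ak4, a mitochondrial adenylate kinase, had -1.41.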
